A study of Mus musculus with 12 samples.

Results

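The 42 genes described here are immediate-early and dissociation response genes, taken by symbol from a table of 56791 gene names: transcription factors, feedback inhibitors, RNA-decay factors and early effectors that cells switch on within minutes of a stimulus. They were measured in hippocampal astrocytes sorted with ACSA-2, an antibody to an astrocyte surface antigen, from adult naive male mice. Ctrl mice carried the floxed alleles alone (Tnfrsf1bfl/fl), and cKO mice also carried CreERT2, a Cre that tamoxifen activates, driven by Gfap sequences (GfapcreERT2:Tnfrsf1bfl/fl), so every animal was floxed for Tnfrsf1b, the gene of TNF receptor 2, and no group carried the Cre alone. Each of 6 A numbers, 3 per genotype (Ctrl A1, A2 and A8; cKO A4, A9 and A10), had libraries named S1 and S2. The labels do not say whether an A number is 1 animal or a pool, or what S1 and S2 are, so p-values measure the spread between A numbers, which may be technical. S1 and S2 were averaged and each A number was counted as 1 unit (n = 3 per genotype).

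Immediate-early genes need no new protein to be transcribed. Kinase cascades activate factors already bound at their promoters, among them serum response factor with its ETS partners at the CArG box and CREB at the cAMP response element. Their products include the FOS and JUN proteins, which pair as AP-1, and brakes such as the dual-specificity phosphatases and ZFP36, which ends the life of many early mRNAs. In brain the same genes respond to neuronal activity, injury and cytokines. Enzymatic dissociation and cell sorting also switch them on, so their level in sorted cells can hold a part made during preparation.

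As recovered from the FPKM steps, 17311872 to 35323322 reads per library were assigned to genes. Of whole counts from 1 to 20, 72.6 to 80.4% were even, so both reads of a pair may be counted. The S1 and S2 libraries of 1 A number correlated at r = 0.980 to 0.984 across the 17540 genes tested, against 0.788 to 0.896 between A numbers. Tnfrsf1b itself was listed at 0 in 9 of the 12 libraries, with 4 reads in the A1 S1 library, 10 and 22 in the A4 libraries (labelled cKO) and at most 0.163 FPKM anywhere, a depth at which it cannot check the labels. Astrocyte markers were abundant in every unit, with a mean of 7.74 to 8.14 on the log2(FPKM + 1) scale over 14 genes. Mature oligodendrocyte markers averaged 6.54, 6.64 and 5.62 in Ctrl A1, A2 and A8 and 3.93, 4.34 and 5.26 in cKO A4, A9 and A10. A8 also had the fewest genes above 0, at 21457 as the mean of its libraries, followed by A9 at 23891 and A2 at 24064, while A1, A10 and A4 had more. The part of this in the results was not tested. A1 and A2 stood apart from A8 in the genes described here, so the genotype results are given with A8 and without it.

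The start regions of 33 of the 42 genes were matched in the RefSeq promoter table (GRCm38.p6). Of these, 5 are printed: those with the highest mean FPKM among the genes that hold a CArG box or a cAMP response element. Dusp5, with 2 CArG boxes, is not printed, since its mean was lower, at 0.519 FPKM. Dusp1, Btg2, Zfp36 and Egr2 were highest in A1 and A2, and Maff was not, but this played no part in the choice. Each line is the 250 bases before the RefSeq start, 5′ to 3′ on the gene's strand, and the capitals mark a cAMP response element (TGACGTCA) in Dusp1, Btg2 and Maff or a CArG box in Zfp36 and Egr2.
Dusp1: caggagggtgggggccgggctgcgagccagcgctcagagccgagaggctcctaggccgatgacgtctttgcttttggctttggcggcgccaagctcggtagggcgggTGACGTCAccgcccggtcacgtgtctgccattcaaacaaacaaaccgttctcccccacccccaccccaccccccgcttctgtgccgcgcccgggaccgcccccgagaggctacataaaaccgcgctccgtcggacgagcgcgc
Btg2: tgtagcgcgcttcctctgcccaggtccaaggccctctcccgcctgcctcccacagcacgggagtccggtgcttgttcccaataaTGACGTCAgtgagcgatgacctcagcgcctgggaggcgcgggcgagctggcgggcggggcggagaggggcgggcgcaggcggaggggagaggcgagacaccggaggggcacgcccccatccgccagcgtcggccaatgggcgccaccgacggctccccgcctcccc
Zfp36: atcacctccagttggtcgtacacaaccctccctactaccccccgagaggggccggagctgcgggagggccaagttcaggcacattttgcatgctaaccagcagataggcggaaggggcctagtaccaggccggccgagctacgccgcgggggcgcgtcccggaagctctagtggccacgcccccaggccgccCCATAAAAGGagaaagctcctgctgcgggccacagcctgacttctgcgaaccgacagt
Egr2: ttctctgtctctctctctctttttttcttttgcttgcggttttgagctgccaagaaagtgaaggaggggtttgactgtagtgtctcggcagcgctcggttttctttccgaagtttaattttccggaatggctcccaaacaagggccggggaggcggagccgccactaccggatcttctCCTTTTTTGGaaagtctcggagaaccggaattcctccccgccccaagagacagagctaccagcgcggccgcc
Maff: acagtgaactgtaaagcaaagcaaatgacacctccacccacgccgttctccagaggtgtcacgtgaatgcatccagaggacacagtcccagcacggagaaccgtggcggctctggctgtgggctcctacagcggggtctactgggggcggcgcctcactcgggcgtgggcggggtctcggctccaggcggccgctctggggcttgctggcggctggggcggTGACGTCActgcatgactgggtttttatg
These lie at chr17:26508473-26508722 (minus strand, Dusp1, a phosphatase of MAP kinases), chr1:134079156-134079405 (minus strand, Btg2, an antiproliferative cofactor of mRNA deadenylation), chr7:28379229-28379478 (minus strand, Zfp36), chr10:67537316-67537565 (plus strand, Egr2) and chr15:79347270-79347519 (plus strand, Maff, a small MAF factor). The first base of the marked motif stood 143 bases before the start in Dusp1, 166 in Btg2, 58 in Zfp36, 72 in Egr2 and 29 in Maff.

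Over the matched genes, searched on both strands, the CArG box was found in 3 of 33 (9.09%: Dusp5, Egr2 and Zfp36) and in 1.62% of the 27025 genes of the table. The cAMP response element was found in 3 of 33 (9.09%: Btg2, Dusp1 and Maff) and in 1.77% of all genes. The EGR site, GCGTGGGCG or GCGGGGGCG, was found in 8 of 33 (24.2%: Fosb, Fosl2, Klf2, Klf4, Maff, Nr4a1, Socs3 and Zfp36) and in 3.47%. The AP-1 site TGACTCA was found in 1 of 33 (3.03%, Csrnp1) and in 5.16%. Egr1, Egr3, Arc, Ier2, Fosl1, Myc, Ccn2, Trib1 and Klf10 had no entry and were not searched. A match describes letters in this window and is not evidence of binding. Lack of a match says nothing of bases outside the window. The genes are also short: their median span was 5243 bases, against 25359 for tested protein-coding genes, and 30 of 42 (71.4%) spanned under 10000 bases against 23.4%.

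Of the 42 genes, 38 had a mean of at least 1 FPKM over the 12 libraries and were tested. No member passed the threshold for cKO against Ctrl at an adjusted p under 0.05 (limma on log2(FPKM + 1), Benjamini-Hochberg over all genes tested), as was true of every gene tested (0 of 17540, 0%). Of the 38, 35 averaged lower in cKO and 3 averaged higher, with a median log2 fold change of -0.60, against -0.01 over all tested genes, of which 50.8% were lower. The number lower was 34 with upper quartile scaling, where Ier5 turned, and 36 with TPM scaling, where Trib1 turned. Those scalings put the median of all tested genes at 0.06 and -0.07. At an unadjusted p under 0.05, 5 were lower in cKO (Egr2, Nr4a2, Arc, Sgk1 and Klf10) and none higher, against 4.71% of all tested genes lower. Every cKO unit was below every Ctrl unit in 4 genes (10.5%: Egr2, Nr4a2, Klf10 and Sgk1), against 7.22% of all tested genes. Counted in either direction the groups did not overlap in the same 4 and in 12.98% of all tested genes. The lowest adjusted p values were 0.516 for Nr4a2 and 0.523 for Egr2.

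**Figure D1:**
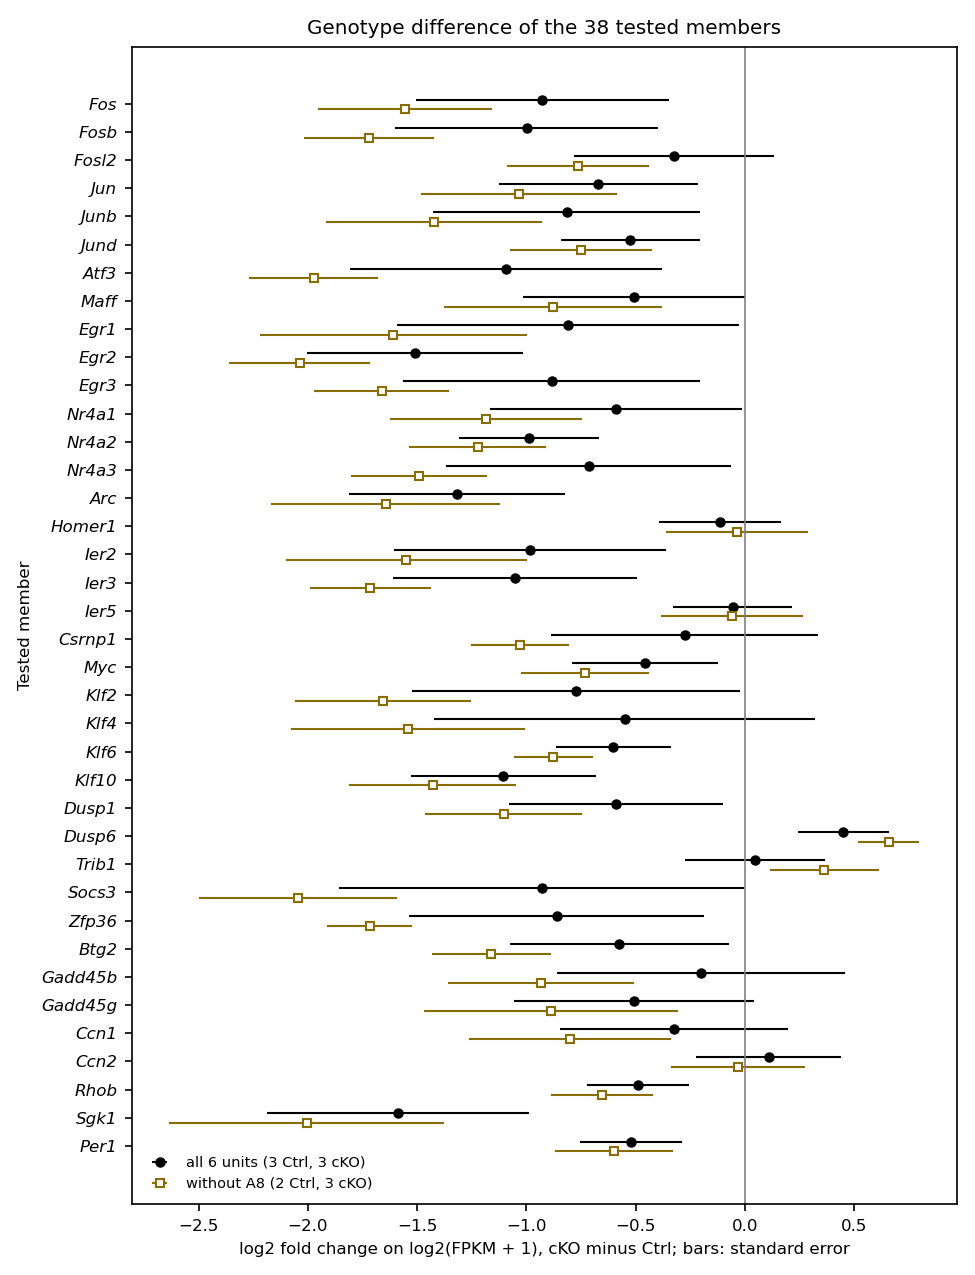
Log2 fold change of each tested gene, cKO minus Ctrl on the log2(FPKM + 1) scale, with its standard error (n = 3 units per genotype), beside the value without A8. With all units 35 of 38 points lie below 0, and none passed the adjusted threshold.

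The levels differed widely between units of 1 genotype. A1 and A2 were the 2 highest of the 6 units in 30 of the 38 genes (78.9%), against 16.0% of all tested genes. A8 and A9 were the 2 lowest in 23 genes (60.5%), against 14.4%, and 19 genes showed both patterns. The mean over the 38 genes on the log2(FPKM + 1) scale was 4.30 in A1, 4.45 in A2 and 2.96 in A8, and 3.45 in A4, 2.76 in A9 and 3.56 in A10. Within Ctrl, A8 was the lowest unit in 34 of 38 genes, against 42.98% of all tested genes, and it lay inside the cKO range in 20 (52.6%, against 37.5%), above it in 5 (13.2%, against 29.6%) and below it in 13 (34.2%), near the 32.9% of all tested genes. Within cKO, A9 was the lowest unit in 34 of 38, against 40.5%. The median SD between the 6 units was 0.84, against 0.33 over all tested genes. Within Ctrl it was 0.97, against 0.33, and within cKO 0.50, against 0.23, so all tested genes also spread more within Ctrl. The median gap between S1 and S2 was 0.06, against 0.09 over all tested genes. Tested over the 12 libraries with limma, S2 against S1 called none of the 38 genes at an adjusted p under 0.05, against 1.39% of all tested genes, and 1 (Rhob) had an unadjusted p under 0.05, against 11.0%. With upper quartile scaling 6 did, against 13.3%.

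**Figure D2:**
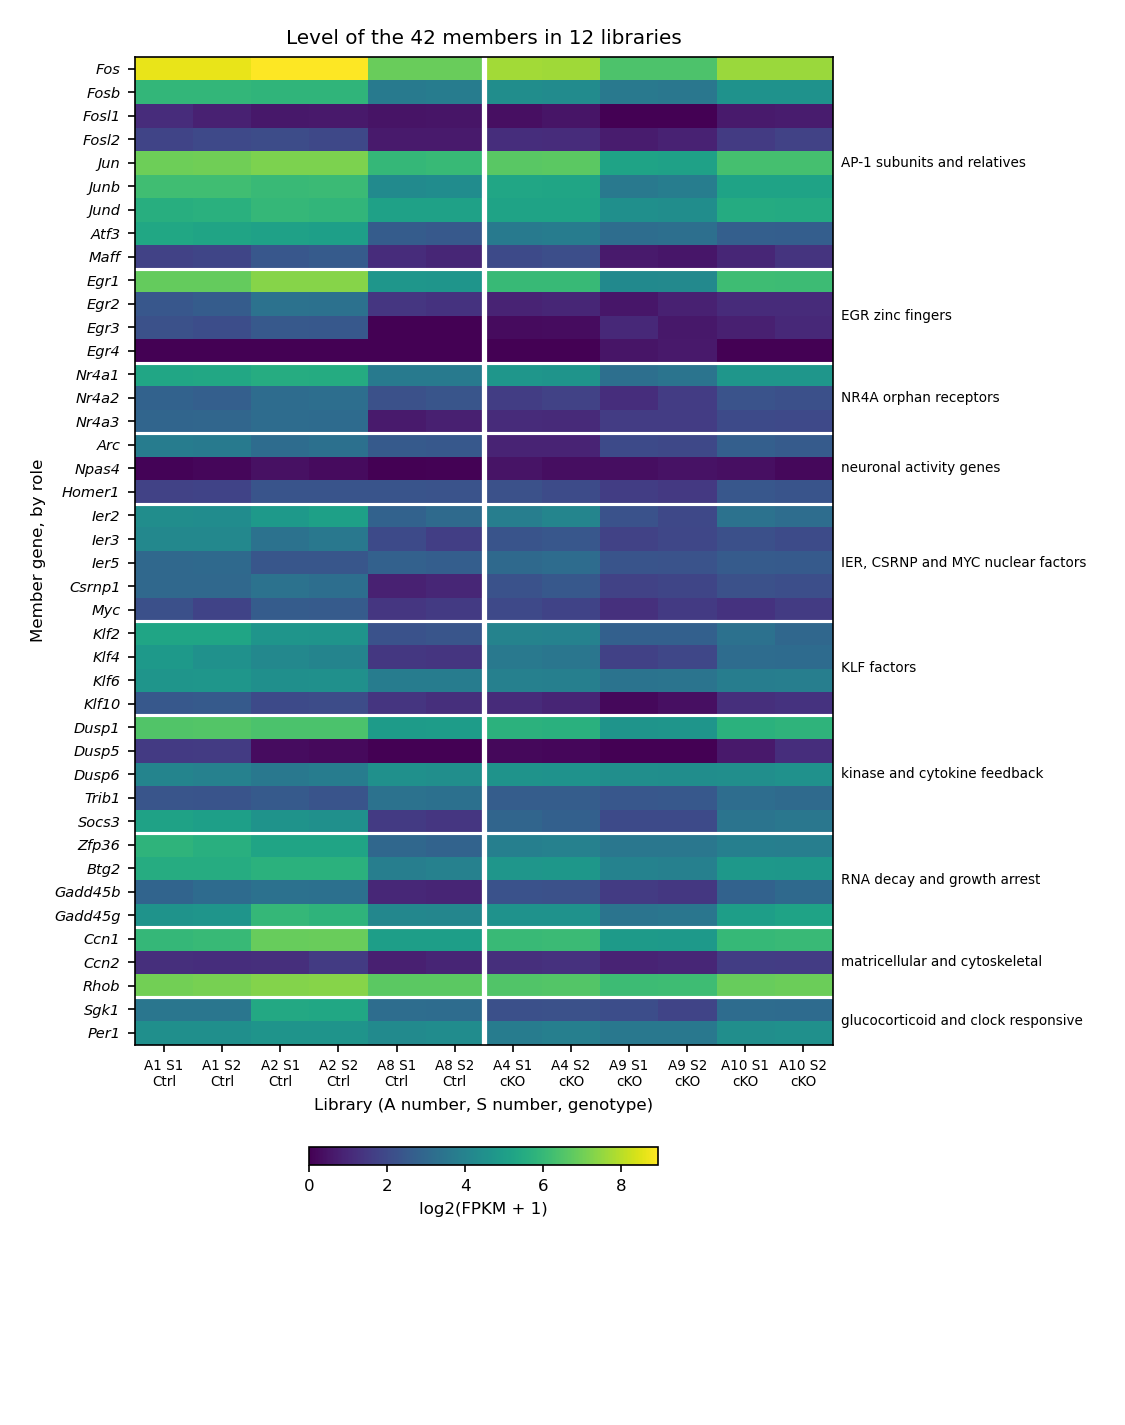
Level of each gene in each of the 12 libraries as a colour on the log2(FPKM + 1) scale, with genes in rows by role and Ctrl libraries left of cKO libraries. S1 and S2 of an A number look alike, and A1 and A2 are brighter than A8 and A9 in most rows.

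**Figure D3:**
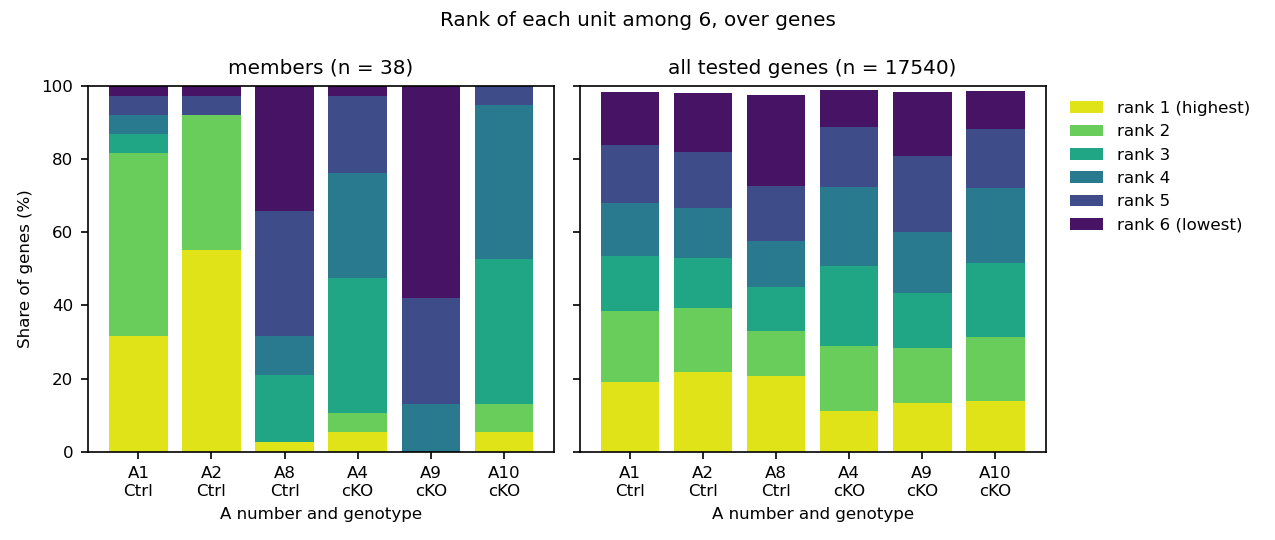
Stacked bars of the share of genes (%) in which each unit took each rank from highest to lowest, for the 38 genes and for all tested genes, where a rank shared by tied units is left out. A1 and A2 take the top ranks in most of the 38 genes, and A8 and A9 the lowest.

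Leaving out A8 moved the unadjusted count, the non-overlap count and the median more than leaving out any other unit did, while the number of genes lower moved most without A9. A8 was set apart for its level in these same genes, so the values without it are no separate support for a genotype difference. Without A8, 24 genes were lower at an unadjusted p under 0.05, against 8.52% of all tested genes, and 1 was higher, against 5.34%. The cKO units were then all below both remaining Ctrl units in 30 genes, against 19.6% of all tested genes. They were all above them in 2 (5.26% of the 38), against 13.7%. The 30 are the genes with A1 and A2 highest, and the 2 those with A1 and A2 lowest. The median log2 fold change was -1.17 and 36 of 38 were lower, but none passed the adjusted threshold and the smallest adjusted p was 0.107 (Zfp36, log2 fold change -1.72, SE 0.19). Without A9 the median was -0.31 and 31 of 38 were lower. Without A2 it was -0.36. No gene of the list was lower at an unadjusted p under 0.05 without A9 or without A2, against 2.90% and 3.67% of all tested genes. That count was 1 without A1, against 3.91%, 1 without A4, against 3.24%, and 7 without A10, against 3.93%. Without A10 the cKO units were all below the Ctrl units in 7 genes (18.4%), against 11.9%.

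Fos and Jun, the core subunits of AP-1, were the most abundant of the AP-1 genes. Fos averaged 403 and 494 FPKM in A1 and A2 and 120 in A8, and 206, 86.4 and 192 in A4, A9 and A10. The A8 level lay inside the cKO range, and the mean was 339 ± 195 in Ctrl and 162 ± 65.6 in cKO (SD, n = 3; log2 fold change -0.93, SE 0.58, adjusted p = 0.809). Jun averaged 126, 145 and 63.0 FPKM in Ctrl and 102, 34.8 and 78.9 in cKO, again with A8 inside the cKO range (log2 fold change -0.67). All 8 tested AP-1 genes were lower in cKO on average, with a median log2 fold change of -0.74, and none passed the test. Of them Fosb averaged 43.1 FPKM in Ctrl and 17.8 in cKO, and the log2 fold change was -0.82 for Junb, -0.52 for Jund, -1.09 for Atf3, a stress-induced bZIP factor, -0.32 for Fosl2 and -0.51 for Maff. Fosl1 was not tested.

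Fos made up 86.3 to 90.8% of the summed FPKM of the 4 FOS genes in every unit, while that sum ran from 98.2 in A9 to 554 in A2. Jun made up 49.7 to 58.1% of the JUN sum, and Egr1 90.5 to 98.3% of the EGR sum. FPKM is per length, so these shares compare levels between genes.

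Egr1, a zinc finger that drives later waves of transcription, averaged 113 and 160 FPKM in A1 and A2, 24.7 in A8, and 64.4, 17.9 and 70.1 in A4, A9 and A10. As with Fos, A8 lay inside the cKO range. Its log2 fold change was -0.81 with an SE of 0.78 (adjusted p = 0.892). Egr2 averaged 4.78, 9.23 and 1.56 FPKM in A1, A2 and A8 and 0.894, 0.622 and 1.14 in A4, A9 and A10. Every Ctrl unit of Egr2 was above every cKO unit, and the mean was 5.19 ± 3.85 in Ctrl and 0.885 ± 0.259 in cKO (SD, n = 3). Its log2 fold change of -1.51 (SE 0.49, unadjusted p = 0.0187, adjusted p = 0.523) was second in size to that of Sgk1. Egr3 gave 3.52 and 4.59 FPKM in A1 and A2 but was listed at 0 in both A8 libraries, and 0.212 to 0.889 in cKO. Its Ctrl units lie on both sides of the cKO range.

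**Figure D4:**
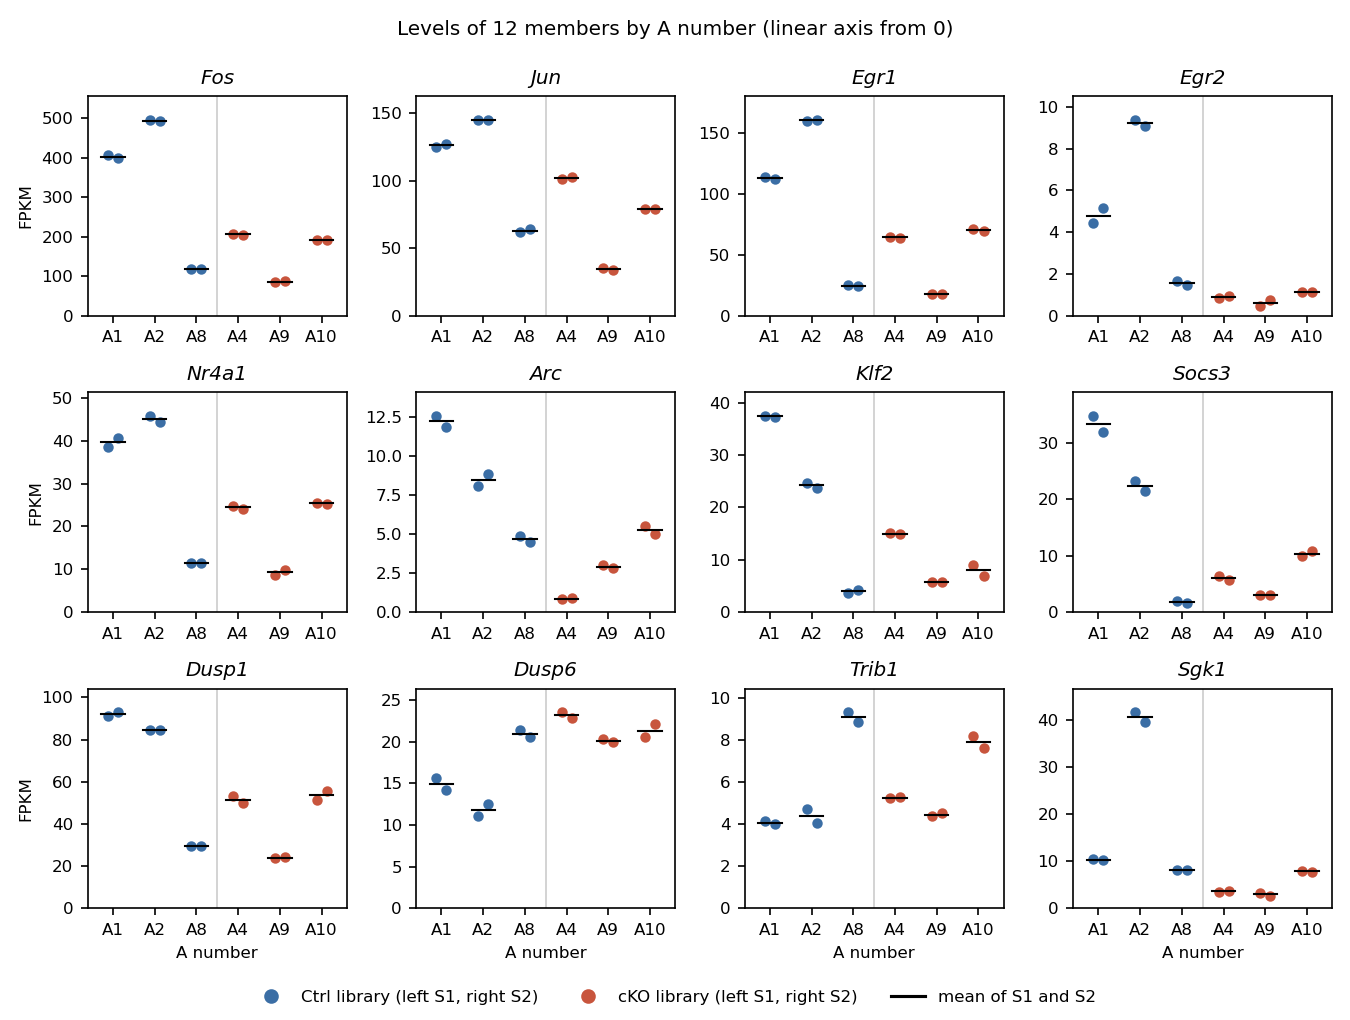
FPKM of 12 genes in each library by A number, on linear axes from 0, with points for S1 and S2, a bar for their mean and colour for genotype. For Fos, Jun, Egr1, Nr4a1, Klf2, Socs3 and Dusp1, A1 and A2 stand above all cKO units while A8 falls among or below them, and Dusp6 and Trib1 are lowest in A1 and A2.

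Among the NR4A orphan receptors, Nr4a1 averaged 39.6, 45.1 and 11.5 FPKM in Ctrl and 24.5, 9.27 and 25.3 in cKO. Nr4a2 averaged 5.87, 8.24 and 3.88 in Ctrl and 2.27, 1.61 and 3.71 in cKO. All Ctrl units of Nr4a2 stood above all cKO units, although A8 exceeded A10 by little (log2 fold change -0.99, SE 0.32, unadjusted p = 0.0181, adjusted p = 0.516). Nr4a3 gave -0.71, with A8 at 0.634 FPKM, the lowest of the 6 units.

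Arc, which encodes a postsynaptic protein of activated neurons, was listed at 12.2, 8.45 and 4.66 FPKM in Ctrl and 0.866, 2.91 and 5.23 in cKO. The A10 value lay above that of A8, so the groups overlapped (log2 fold change -1.32, SE 0.49, unadjusted p = 0.0323). Homer1, a scaffold of metabotropic glutamate receptors, averaged 3.47 ± 0.870 in Ctrl and 3.20 ± 1.13 in cKO, with A10 highest and A9 lowest (log2 fold change -0.11). Npas4, the neuron-specific activity factor, was listed near 0 and is given with the untested genes. Of 9 neuron markers listed, 3 were tested. On the log2 scale they averaged 0.899 in A4 and 0.930 in A9, and 1.49 to 1.68 in the other units. The 3 genes differed in this. Tubb3 was 0.285 FPKM in A4 and 0.0949 in A9, against 2.19 to 3.45 in the other units. Nefl was 0.710 and 0.753, against 0.775 to 2.18. Snap25 was not low there, at 1.97 and 2.63, against 1.87 to 2.79.

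Ier2 averaged 19.7, 30.0 and 6.78 FPKM in Ctrl and 14.5, 3.30 and 8.81 in cKO. Ier3, an NF-kB and stress-induced survival gene, averaged 17.0, 10.2 and 2.60 in Ctrl and 4.23, 2.60 and 3.32 in cKO. In both, A8 lay inside the cKO range, for Ier3 just above A9. Of the others in this group, Myc gave a log2 fold change of -0.46, Csrnp1 -0.28 and Ier5 -0.06.

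Klf2 and Klf6, Kruppel-like zinc fingers, averaged 37.4, 24.2 and 3.95 FPKM and 24.8, 21.3 and 12.6 in Ctrl. In cKO Klf2 averaged 9.58 ± 4.84 (SD, n = 3) and Klf6 13.9, 9.74 and 13.0. A8 was the lowest of all units for Klf2, and lay between the cKO units for Klf6. Klf10, a TGF-beta-induced factor, averaged 4.70, 3.14 and 1.48 in Ctrl and 0.879 ± 0.610 in cKO (SD, n = 3). The highest cKO unit, A10 at 1.41, was just below A8 (log2 fold change -1.10, SE 0.42, unadjusted p = 0.0351). Klf4 gave -0.55.

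Of the 4 tested feedback genes, 2 averaged lower and 2 higher in cKO. Dusp1 averaged 92.2, 84.5 and 29.6 FPKM in Ctrl and 51.5, 24.1 and 53.5 in cKO, and the suppressor of cytokine signalling Socs3 averaged 33.4, 22.4 and 1.79 in Ctrl and 6.06, 3.03 and 10.4 in cKO. A8 lay inside the cKO range for Dusp1 and below it for Socs3. Dusp6, a phosphatase of ERK, averaged 14.9, 11.8 and 21.0 in Ctrl and 23.2, 20.1 and 21.3 in cKO, so A1 and A2 were the lowest units (log2 fold change 0.45, SE 0.21, unadjusted p = 0.0661). Trib1, a pseudokinase, was also lowest in A1 and A2, at 4.08 and 4.40, and highest in A8, at 9.12 (log2 fold change 0.05). Dusp6 and Trib1 were the only tested genes of the list with A1 and A2 as the 2 lowest units. That is 2 of 38, against 1811 of all 17540 tested genes.

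Btg2 averaged 45.5, 51.8 and 13.7 FPKM in Ctrl and 25.4, 14.4 and 25.9 in cKO. Gadd45g, a stress sensor of the growth-arrest family, averaged 23.9, 58.4 and 16.5 in Ctrl and 22.6, 10.1 and 33.4 in cKO, and here only A2 stood above the rest. Zfp36 averaged 52.4, 36.8 and 6.58 in Ctrl and 13.9, 10.8 and 13.4 in cKO, with A8 the lowest of all units (log2 fold change -0.86, adjusted p = 0.857). Gadd45b gave -0.20.

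Rhob, a small GTPase, averaged 134, 157 and 103 FPKM in Ctrl and 92.5, 70.2 and 120 in cKO (log2 fold change -0.49). Ccn1, a matricellular protein, averaged 63.5, 118 and 31.6 in Ctrl and 67.3, 27.8 and 64.2 in cKO, with A2 alone standing high (log2 fold change -0.32). Ccn2, its relative, ranged from 0.822 to 2.03 FPKM and gave 0.11. The glucocorticoid-induced kinase Sgk1 averaged 10.4, 40.6 and 8.12 in Ctrl and 3.58, 2.96 and 7.82 in cKO. A2 carried most of the Ctrl mean, and A8 and A10 lay close together (log2 fold change -1.59, SE 0.60, unadjusted p = 0.0336). Per1, a clock gene that glucocorticoids induce, averaged 21.0, 23.9 and 18.9 in Ctrl and 12.9, 11.1 and 20.9 in cKO, so A10 lay inside the Ctrl range.

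The 4 genes below the filter were Egr4, Npas4, Fosl1 and Dusp5, at means of 0.0802, 0.20, 0.475 and 0.519 FPKM, and the nearest genes inside it were Ccn2 at 1.33 and Egr3 at 1.67. Npas4 averaged 0.119 ± 0.124 in Ctrl and 0.281 ± 0.0521 in cKO (SD, n = 3, exact permutation test, p = 0.2, two-sided, smallest possible 0.1). Fosl1 gave 0.632 and 0.319 (exact p = 0.4) and Dusp5 0.703 and 0.336 (exact p = 0.7).

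Related genes were set beside the list. Of 28 genes upstream (SRF, ETS, CREB and ERK), 18 averaged lower and 10 higher in cKO, none was called, and A1 and A2 were highest in 6 (21.4%). Of 44 tested other early response genes, 35 averaged lower and 9 higher, with a median log2 fold change of -0.27, and A1 and A2 were highest in 20 (45.5%). All 15 heat shock genes averaged lower in the deposited scaling, the smallest difference being -0.02, with a median of -0.33 and none at an unadjusted p under 0.05, and A1 and A2 were highest in 8 (53.3%). Their mean level was 4.91, 4.97 and 4.17 in A1, A2 and A8 and 4.45, 4.26 and 4.33 in A4, A9 and A10. Of 9 tested glucocorticoid response genes 5 averaged lower and 4 higher.

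**Figure D5:**
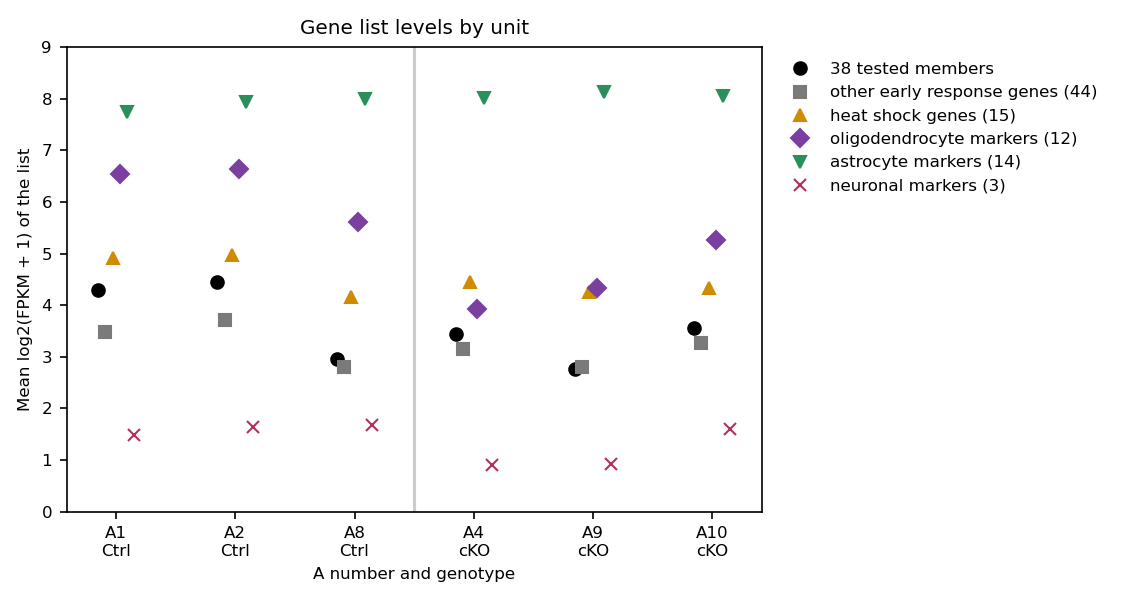
Mean level of each list in each unit on the log2(FPKM + 1) scale. The early genes are high in A1 and A2 and low in A8 and A9, the astrocyte markers span a narrow range with every cKO unit above every Ctrl unit, and the oligodendrocyte markers are higher in all 3 Ctrl units than in the cKO units.

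Several marker lists were also high in A1 and A2, and others were not. All 12 oligodendrocyte markers averaged lower in cKO and were highest in A1 and A2 (unit means by the exact permutation test, p = 0.1). The ependymal markers averaged 5.55, 5.41 and 3.69 in A1, A2 and A8 and 4.71, 3.499 and 4.97 in A4, A9 and A10. Their cKO mean was 4.39 ± 0.784 (SD, n = 3). As in the mean over the 38 genes, A1 and A2 were highest, A10 and A4 lay between, and A8 and A9 were lowest. The endothelial markers averaged 2.82, 2.32 and 0.61 in Ctrl and 2.47, 0.80 and 0.77 in cKO. The oligodendrocyte precursor markers averaged 3.91, 4.09 and 3.34 in Ctrl and 2.87, 3.14 and 3.33 in cKO (exact permutation test, p = 0.1). The mural markers averaged 3.56, 3.57 and 2.95 in Ctrl and 3.42, 3.36 and 3.997 in cKO. Of 10 microglia markers 3 were tested, and all 3 averaged higher in cKO. They averaged 2.12, 2.16 and 2.11 in Ctrl and 3.27, 2.68 and 2.40 in cKO (exact permutation test, p = 0.1). The astrocyte markers averaged 7.74, 7.93 and 7.997 in A1, A2 and A8 and 8.02, 8.14 and 8.06 in A4, A9 and A10 (exact permutation test, p = 0.1, the smallest possible), and 12 of 14 averaged higher in cKO. None of the 4 perivascular macrophage markers reached the filter: Lyve1 and Pf4 were listed at 0 in every library, Mrc1 was above 0 in A1 (0.185 FPKM) and A10 (0.0511) alone, and Cd163 was above 0 in every unit, up to 0.870 FPKM in A8. The mitochondrial share was 7.95, 8.17 and 9.66% in A1, A2 and A8 and 9.85 and 9.05% in A9 and A10, with A4 above all of these. Their part in the levels of the early genes was not tested. In bulk samples, fewer cells of a type and less RNA per cell cannot be told apart.

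For 10 of the 42 genes, Fosl1, Jun, Junb, Jund, Maff, Csrnp1, Dusp1, Dusp5, Zfp36 and Ccn2, some exon bases are shared with another gene. No strand setting is given in the sources used here, so their values are less certain.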

How the data were processed

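Bulk RNA-seq libraries (SMART-Seq V4, 125 base paired-end reads, per the labels' protocols) of ACSA-2-sorted hippocampal astrocytes were deposited as 1 table of FPKM values (12 libraries, 56941 rows) made by the authors. The submitters' processing notes name FastQC, STAR, featureCounts, DESeq2 and the builds mm10 and GRCm38, with no roles. Positions in the table are of a build not stated: 2.70% of 51948 IDs shared with GENCODE M21 have the same position, so no table coordinates are printed. Rows with the same symbol were summed (56791 names). Genes with a mean of at least 1 FPKM (17540) were tested with limma 3.58.1 in R 4.3.3 on log2(FPKM + 1), on the mean of S1 and S2 per A number, with Benjamini-Hochberg adjustment at 0.05. The fold changes understate those of low genes. Reads were recovered from FPKM steps, with 82.8 to 86.3% of genes above 0 whole within 0.02. Single values used exact permutation over 20 arrangements. Both limma fits were run on simulated data, which asked only whether the median size of planted changes was recovered. The simulated noise was independent between genes, so it says nothing of genes that vary together between units. All 42 genes are accounted for by role. Values are given for the 2 genes of each role with the highest mean FPKM. They are also given for the 5 with the smallest unadjusted p in each direction, where only 3 averaged higher. Most are by unit, and some are for part of the units or are genotype means or ranges. The genes and lists were chosen with earlier results of these data known. Alternatives were other pseudocounts, filters, scalings, library choices and leaving out each unit.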

Additional observations from a re-analysis of the deposited data

Results flagged for a closer look

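Egr4, an early zinc finger that was too low to test, averaged 0.477 FPKM in A9, with 16 and 32 reads in its S1 and S2 libraries, while it was listed at 0 in all other libraries but the S2 library of A1. A signal in a gene outside the tests, above the level in the Ctrl samples, is what set it apart. Over the units the exact permutation test gave p = 1.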

How the results depend on the processing

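Over 18 alternatives no gene of the list passed the adjusted threshold, with 0.107 the smallest adjusted p. Of 672 values, 18 changed sign, in 8 genes. Ier5 gave 0.0113 with upper quartile scaling and Trib1 -0.0119 with TPM scaling. Leaving out 1 unit moved the median log2 fold change between -1.17 and -0.31, the genes lower in cKO between 31 and 37 and the genes not overlapping in either direction between 4 and 32 (84.2%, without A8, against 33.4% of all tested genes). At a mean FPKM of at least 5 that number was 1 of 26 (3.85%), against 15.02%. The 8 genes that changed sign had these ranges of log2 fold change over the 18 alternatives. Homer1 ran from -0.29 to 0.12, Ier5 from -0.28 to 0.12, Csrnp1 from -1.03 to 0.17 and Klf4 from -1.54 to 0.0835. Trib1 ran from -0.15 to 0.37, Gadd45b from -0.93 to 0.24, Ccn1 from -0.80 to 0.14 and Ccn2 from -0.0654 to 0.28. The cause was not tested. At an unadjusted p under 0.05, 523 genes were higher and 826 lower, against 761 and 625 with upper quartile scaling and 367 and 1003 with TPM scaling. S numbers label 2 libraries of 1 A number and pair no Ctrl with a cKO unit. Differences of S2 from S1 correlated at 0.133 to 0.190 between A numbers. In limma fits of all 12 libraries, with A numbers as random effects, 112 genes were called without the replicate block and 80 with the replicate block. No gene of the list was called in either (smallest adjusted p = 0.163 without the block and 0.219 with it). Both fits assume 1 correlation within A numbers for all genes (0.915 and 0.924). S1 and S2 are near-copies, so these calls are no separate support for a genotype difference. Leaving out 1 unit called 0 to 1 genes. For S2 against S1 243 genes were called (198 higher and 45 lower in S2), 256 with upper quartile scaling (154 and 102), 152 with no filter, 22 without the A number as block and 152 to 180 with 1 unit left out.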
